A study of Rattus norvegicus with 18 samples.

Results

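The NR4A family was examined in gastrocnemius muscle of 18 male Brown Norway rats (BN/SsNOlaHSD). Its 3 genes, Nr4a1 (ENSRNOG00000007607), Nr4a2 (ENSRNOG00000005600) and Nr4a3 (ENSRNOG00000005964), were taken by identifier and chromosome from a count table of 32883 Ensembl genes. All 3 were found on the stated chromosomes and all 3 passed the filter on low counts, which kept 14646 genes. The groups were 6 young rats fed ad libitum (AL) and killed at 6 months, 6 aged rats fed AL and killed at 28 months, and 6 aged rats killed at 28 months under caloric restriction (CR), which from 2 months of age received 55% of the AL intake as a ration given in the late morning. The labels name no transgene or drug, all rats were housed singly from 2 months of age, and the hour of death is not given in the sources used here. The comparisons ask how expression differs with age under AL feeding, and how far aged CR rats differ from each AL group.

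NR4A proteins are orphan nuclear receptors. Their ligand pocket is filled by bulky side chains, so their activity is set largely by how much protein is made. NR4A genes are immediate early genes, switched on briefly by cAMP, calcium and stress signals, and in skeletal muscle they respond to beta-adrenergic stimulation and to exercise. There they are known for inducing genes of glucose use and fat oxidation. Nr4a1 encodes Nur77, Nr4a2 encodes Nurr1 and Nr4a3 encodes NOR-1. All bind the NBRE, a DNA element, as monomers, and Nur77 and Nurr1 can also pair with the retinoid X receptor.

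In the Rnor_6.0 annotation of the table, Nr4a1 lies on the plus strand of chromosome 7 from 142905758 to 142920216, Nr4a2 on the minus strand of chromosome 3 from 43111240 to 43119159, and Nr4a3 on the plus strand of chromosome 5 from 63781801 to 63821637. Each gene has 8 separate exon blocks, with a summed exon length of 2660 bases for Nr4a1, 3375 for Nr4a2 and 4394 for Nr4a3. Fragments were counted without regard to strand, and 0 annotated genes overlap any of the 3. Within 500 kb of the 3 genes lie 52 other annotated genes, of which 19 were tested.

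Start-site sequences from RefSeq, in build GRCr8, were matched for Nr4a1 and Nr4a2. They are shown because NR4A genes are textbook targets of the cAMP response element binding protein CREB, whose full element is TGACGTCA and whose core is TGACG. Each sequence runs 5′ to 3′ on the gene's strand from 250 bases before the start to 50 after it, and capitals mark the core on either strand, where it reads TGACG or CGTCA. Nr4a1 is at chr7:134259888-134260187 (plus strand) and Nr4a2 at chr3:62104838-62105137 (minus strand). In both cases the RefSeq gene reaches further upstream than the start shown.
Nr4a1: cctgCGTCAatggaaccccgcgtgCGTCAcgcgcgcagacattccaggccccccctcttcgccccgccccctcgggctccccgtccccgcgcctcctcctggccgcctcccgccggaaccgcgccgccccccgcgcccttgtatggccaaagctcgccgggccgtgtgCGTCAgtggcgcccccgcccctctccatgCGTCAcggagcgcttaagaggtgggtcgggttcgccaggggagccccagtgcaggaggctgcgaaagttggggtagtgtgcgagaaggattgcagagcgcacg
Nr4a2: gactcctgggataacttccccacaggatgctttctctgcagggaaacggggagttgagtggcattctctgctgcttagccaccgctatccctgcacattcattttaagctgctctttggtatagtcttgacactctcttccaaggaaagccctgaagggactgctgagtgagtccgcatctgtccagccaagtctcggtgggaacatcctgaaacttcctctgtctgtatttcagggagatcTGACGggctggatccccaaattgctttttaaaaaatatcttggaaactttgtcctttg

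The Nr4a1 sequence holds 4 cores, of which the nearest to the start lies from -53 to -49 and the farthest from -246 to -242. Nr4a2 has 1 core, from -8 to -4. At least 1 core is present in 21.2% of the 33469 start-site sequences of 300 bases, and 4 or more in 0.236%. Every core of Nr4a1 is the end of the longer word TGCGTCA, a word chosen after this sequence was read. It occurs in 1.9% of the sequences, and the 1 sequence with 4 or more is that of Nr4a1 itself. The full element was in neither sequence and is in 1.83% of all. The NBRE, searched as AAAGGTCA on both strands, was likewise in neither and is in 1.43% of all. Nr4a1 has 72.3% G and C in this window and Nr4a2 48.7%, against a median of 51.7%. Starts further upstream were not examined for either gene. These matches describe letters only and say nothing about binding in these rats.

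Per kilobase of exon, Nr4a1 had the highest level of the 3 genes in every rat. In CPM, the count corrected for library size with TMM factors, it ranged from 180.0 in rat 2 to 409 in rat 3 among young rats fed AL, with a median of 260.3. Aged rats fed AL had from 33.0 (rat 8) to 116 (rat 11), with a median of 74.8. Aged CR rats had from 80.9 in library 8828 to 311 in rat 14, with a median of 222. Every aged rat fed AL thus lay below every young rat, and the aged CR rats spanned the gap, with 5 of 6 above all aged rats fed AL and 2 of 6 below all young rats. Libraries 8826, 8827 and 8828 are named by library number because their column names fit 2 rats of the aged CR group.

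Nr4a2, the gene of Nurr1, had the lowest mean level per kilobase in each group. Young rats fed AL had from 11.9 CPM (rat 6) to 55.8 (rat 5), with a median of 22.7. In aged rats fed AL the range was 2.49 (rat 8) to 5.75 (rat 7) and the median 3.25. In aged CR rats it was 4.55 (library 8828) to 19.3 (rat 13), with a median of 9.78. The lowest young rat had more than the highest aged rat fed AL, while 4 of 6 aged CR rats were above every aged rat fed AL and 4 of 6 below every young rat. The counts behind these values were small in the aged AL group, from 55 to 113 fragments, and a count of 55 alone carries a counting error of 13.5%.

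Nr4a3, the gene of NOR-1, had the largest SD of log2 CPM of the 3 genes in each group. In aged rats fed AL the margin over Nr4a1 was slight, at 0.650 against 0.642. Among young rats fed AL Nr4a3 ran from 16.8 CPM in rat 1 to 107 in rat 5, with a median of 66.7. Aged rats fed AL had between 4.50 CPM (rat 9) and 12.4 (rat 11), with a median of 7.53. Aged CR rats had between 6.76 CPM (rat 13) and 57.6 (library 8827), with a median of 19.2. Again no aged rat fed AL reached the lowest young rat. In aged CR rats, 5 of 6 were above every aged rat fed AL, although library 8828 at 12.5 CPM cleared rat 11 by little, and 2 of 6 were below every young rat.

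**Figure D1:**
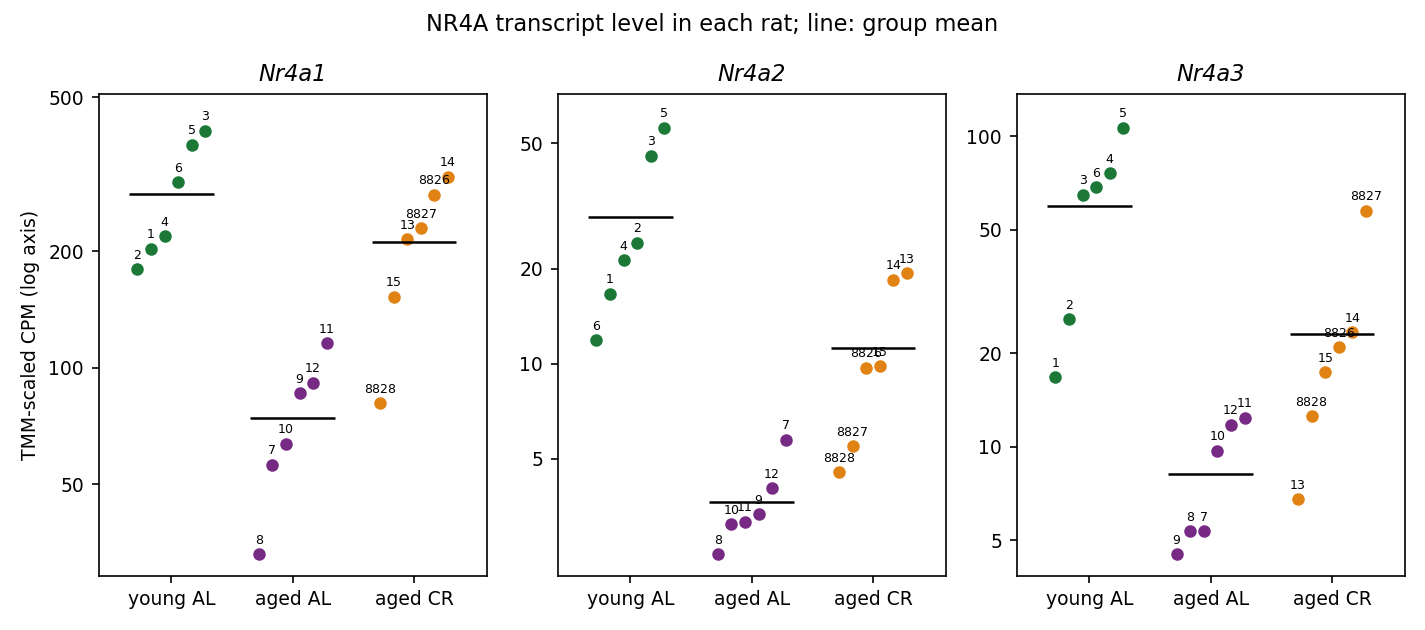
Level of Nr4a1, Nr4a2 and Nr4a3 in each rat (vertical log axes, TMM-scaled CPM) for young AL, aged AL and aged CR groups of 6. Points are rats, labelled by rat or library number, and lines are group means. The aged AL points lie below all young points for each gene, and the aged CR points spread between and across the other groups.

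All 3 NR4A genes fell with age in rats fed AL. Nr4a1 went from 282 ± 96.2 CPM in young to 74.4 ± 29.4 in aged rats (SD, n = 6 each), which is 3.79-fold lower, or -1.92 ± 0.33 on the log2 scale (fitted change ± SE), with a Benjamini-Hochberg adjusted p of 0.00376 in edgeR's quasi-likelihood test. Nr4a2 went from 29.2 ± 17.4 to 3.65 ± 1.14 CPM, 8.02-fold lower, or -3.00 ± 0.42 on the log2 scale (adjusted p = 0.00104 in the same edgeR test). Nr4a3 went from 59.8 ± 33.4 to 8.18 ± 3.54 CPM, 7.30-fold lower, or -2.87 ± 0.50 on the log2 scale (adjusted p = 0.00471 in the same edgeR test).

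Calls required an adjusted p of 0.05 or less, corrected over all genes tested, together with a 1.5-fold change or more. On these terms 3 of 3 NR4A genes were called lower in aged rats fed AL, where 1.52% of all genes tested were. The groups did not overlap for 3 of 3, against 1.11% of all genes on the lower side. The median log2 fold change of the 3 was -2.87, that of all genes tested 0.01. Among all genes with a lower fitted level in aged rats fed AL, Nr4a2 had the 4th largest size of change, Nr4a3 the 5th and Nr4a1 the 20th. In muscle homogenate, fewer cells of a type and less RNA per cell cannot be told apart. The 3 falls were called in each alternative fit and with each library left out in turn.

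Aged CR rats were compared with the same young rats fed AL. Here 0 of 3 NR4A genes were called by edgeR, against 1.22% of all genes called lower, and all 3 fitted values were below young. Nr4a1 was at 211 ± 84.2 CPM in aged CR rats (SD, n = 6), a fitted log2 change of -0.41 ± 0.31 (SE, edgeR adjusted p = 0.500). Nr4a2 was at 11.2 ± 6.32 CPM, a change of -1.38 ± 0.39 (edgeR adjusted p = 0.0620). Nr4a3 was at 23.1 ± 17.9 CPM, a change of -1.37 ± 0.47 (edgeR adjusted p = 0.122). Before adjustment, Nr4a2 and Nr4a3 were among the 10.1% of genes tested that had an edgeR p under 0.05 on the lower side. A p above the threshold does not show that levels were equal. All 6 aged CR values of each of these 2 genes lay below the young median, whereas for Nr4a1 4 of 6 did.

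The call for Nr4a2 and Nr4a3 in aged CR against young rats depended on the tool and on single libraries. DESeq2's Wald test on all 18 libraries called 2 of the 3 genes lower, Nr4a2 (adjusted p = 0.0120) and Nr4a3 (adjusted p = 0.0420). That test called 704 of 17567 genes in either direction, where edgeR called 290 of 14646. With edgeR, Nr4a3 was called at a log2 fold change of -1.88 (adjusted p = 0.0354) once library 8827 was left out. Nr4a2 was called without rat 6 (log2 fold change -1.54, adjusted p = 0.0473) and without rat 8 (-1.38, adjusted p = 0.0424), again with edgeR. Rat 8 is an aged AL rat and so in neither group compared, but it is part of the shared fit. The log2 fold change of Nr4a2 was -1.38 with it as well. Over all genes, edgeR called 214 without library 8827, 199 without rat 6 and 578 without rat 8, against 290 in the main fit. Nr4a1 was not called against young rats in any fit that was run.

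The aged groups were compared directly in the same fit. Nr4a1 and Nr4a2 rose in aged CR rats relative to aged rats fed AL, and the fitted difference of Nr4a3 was of like size without passing the test. Nr4a1 was 2.84-fold higher, or 1.51 ± 0.32 on the log2 scale (SE, edgeR adjusted p = 0.0213). Nr4a2 was 3.08-fold higher, or 1.62 ± 0.41 on that scale (edgeR adjusted p = 0.0462). For Nr4a3 the difference was 1.495 ± 0.48 (edgeR adjusted p = 0.120). Thus 2 of 3 were called higher, against 0.833% of all genes tested, and the median log2 fold change of the 3 was 1.51 against -0.02 over all genes.

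**Figure D2:**
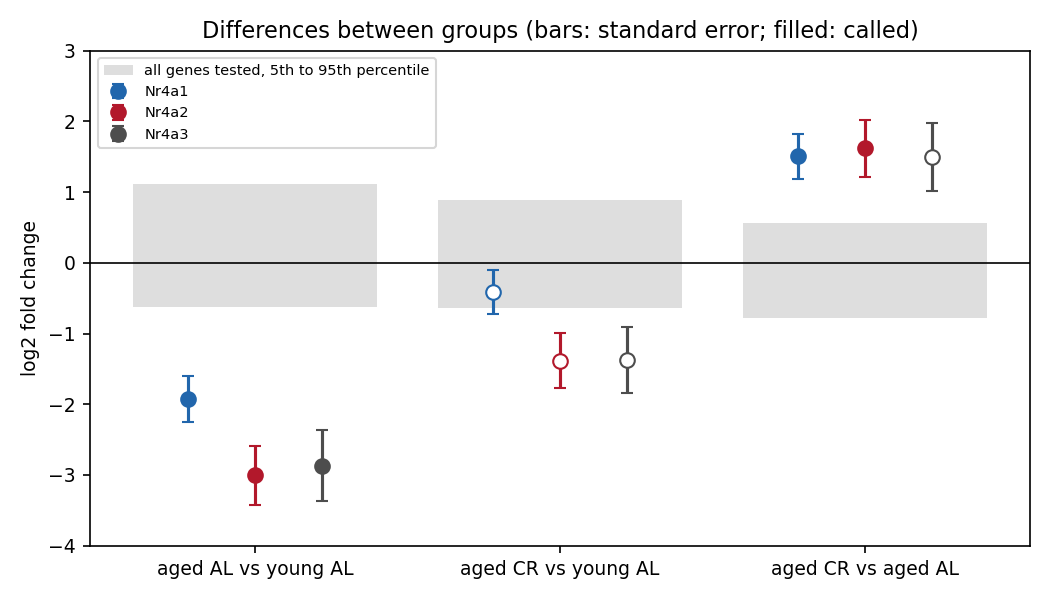
Log2 fold change (vertical axis) of each NR4A gene in the 3 comparisons, with bars of 1 standard error and filled points where the gene was called. Grey bands hold the 5th to 95th percentile of all 14646 genes tested. The aged AL against young AL points lie at -1.92, -3.00 and -2.87, and the aged CR against aged AL points between 1.495 and 1.62.

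These calls between the aged groups lie near the threshold. For Nr4a1 the call was lost without rat 7 (edgeR adjusted p = 0.0507), without rat 10 (0.0506) and without library 8826 (0.0599), and for Nr4a2 it was lost in 12 of the 18 fits that left out 1 library, with an adjusted p of at most 0.106. Nr4a3 fell short in all 18 such fits, and without library 8827 its log2 fold change was 0.99 (adjusted p = 0.324). DESeq2 called all 3, with an adjusted p of 0.0278 for Nr4a3 in the fit of 18 libraries, which called 444 of 15379 genes where edgeR called 202 of 14646. The 3 comparisons share groups, so their values are not independent of each other.

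The share of mitochondrial counts differed between libraries. The percent of counts on the 2 mitochondrial genes with the length of ribosomal RNAs was 0.662 to 0.977 in aged rats fed AL, 0.341 to 3.10 in young rats fed AL and 0.906 to 10.3 in aged CR rats. Rat 14, library 8826 and library 8827 had the highest percents (10.3, 8.52 and 7.89), and these were also the 3 highest of the aged CR group for Nr4a1 and for Nr4a3. For Nr4a2 the highest aged CR rat was rat 13, at 1.93%, followed by rat 14 (18.4 CPM), while library 8827 was next to lowest (5.49 CPM). In young rats fed AL, rats 1 and 2 had the highest percents (3.10 and 2.85) and the 2 lowest levels of Nr4a1 and of Nr4a3. For Nr4a2, rat 1 was next to lowest of the young rats (16.7 CPM) and rat 2 the 3rd highest (24.2 CPM). With the log2 share of these counts as a covariate in edgeR, the log2 fold change between the aged groups was 1.27 for Nr4a1 (SE 0.45, adjusted p = 0.511), 1.77 for Nr4a2 (SE 0.54, adjusted p = 0.342) and 1.17 for Nr4a3 (SE 0.70, adjusted p = 0.917). That fit called 11 of all genes between the aged groups, against 202 without the covariate. Only library 8828 of the aged CR group had a share within the aged AL range. Diet and share therefore cannot be told apart in that fit. In the same fit the 3 falls with age under AL feeding were called, with log2 fold changes of -1.91, -3.02 and -2.87.

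Rat 8 and library 8828 stood apart from the other libraries on the first principal component of log2 CPM, at 108.9 and 75.5 where the other libraries lay between -45.8 and 8.25. Rat 8 had the lowest Nr4a1 and Nr4a2 of all 18 libraries, and library 8828 the lowest Nr4a1 and Nr4a2 of the aged CR group. With both left out, the log2 fold changes of aged against young AL rats were -1.77, -2.91 and -2.77 for Nr4a1, Nr4a2 and Nr4a3, all called. Between the aged groups they were then 1.52 for Nr4a1 (adjusted p = 0.00305) and 1.70 for Nr4a2 (adjusted p = 0.0240), both called, and 1.52 for Nr4a3 (adjusted p = 0.0937, edgeR in each case). Calls over all genes rose as well, to 706 from 497 between the AL groups and to 477 from 202 between the aged groups. Total counts ran from 17335401 to 27432767 over the 18 libraries. Library numbers form a separate block in each group, so group and any separate handling of these blocks cannot be told apart.

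**Figure D3:**
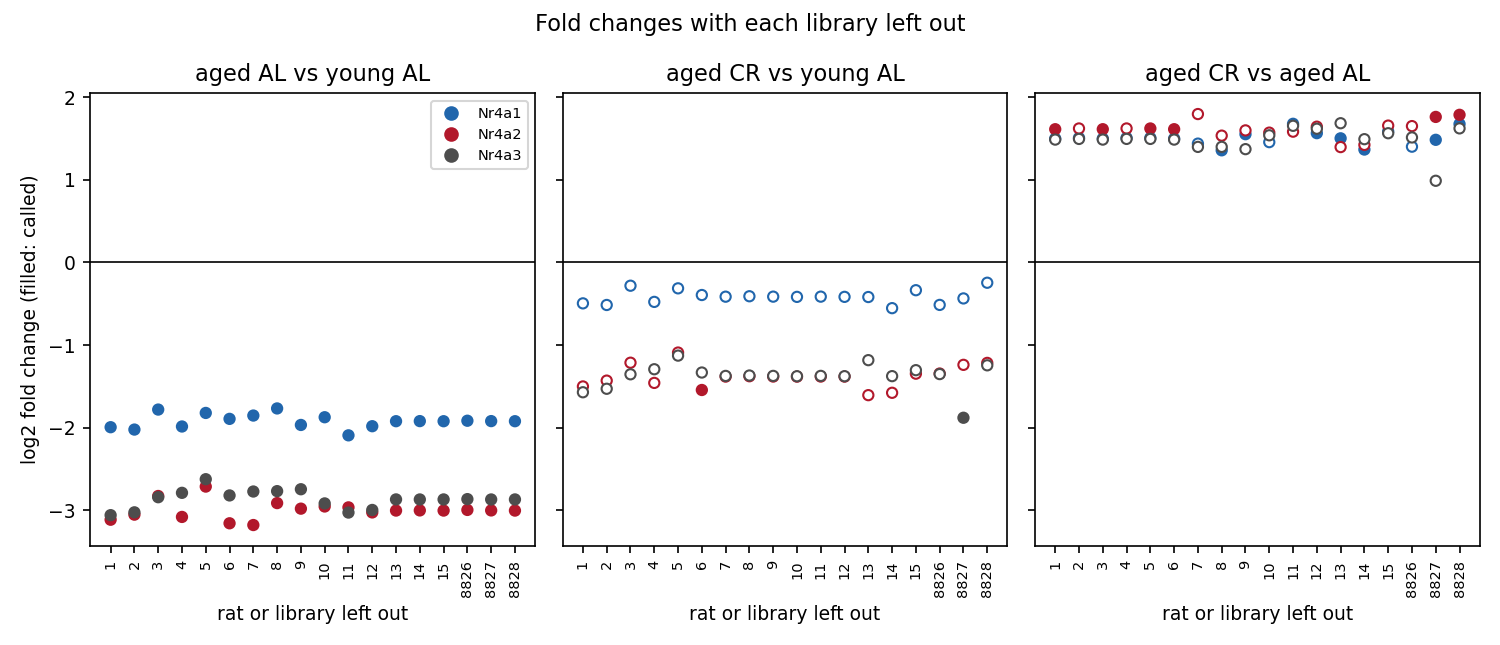
Log2 fold change (vertical axis) of each NR4A gene in the 3 comparisons when the rat or library named on the horizontal axis was left out of the fit, with filled points where the gene was called. All points of the first panel are filled, and in the third panel Nr4a3 drops to 0.99 without library 8827.

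Rats of a group differed from each other in NR4A expression more than in most genes. The within-group SD on the log2 scale was 0.62 for Nr4a1, 0.73 for Nr4a2 and 0.91 for Nr4a3, while the median gene tested had 0.33. Genes were also divided by mean level into 20 bins. Against the 732 genes of its own bin, the SD was above that of 97.0% of genes for Nr4a1, 94.5% for Nr4a2 and 98.0% for Nr4a3. The highest and the lowest rat of a group were 2.27-fold apart for Nr4a1 in young rats fed AL, and 8.51-fold apart for Nr4a3 in aged CR rats. These were the smallest and the largest such ranges over the 9 combinations of gene and group.

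**Figure D4:**
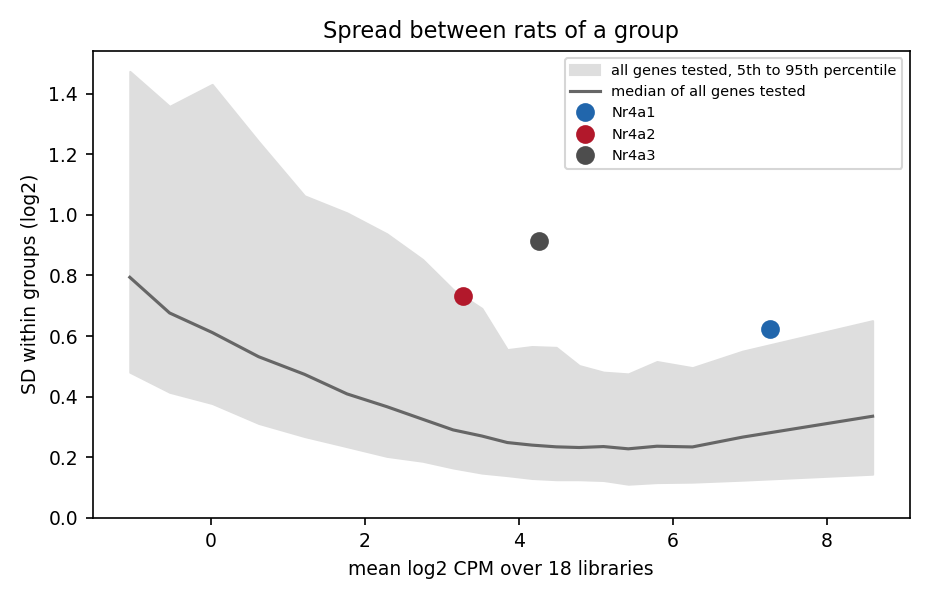
Within-group SD of log2 CPM (vertical axis) against mean log2 CPM (horizontal axis). The grey band and line give the 5th to 95th percentile and the median of all genes tested in 20 bins of level. Nr4a1, at 0.62, and Nr4a3, at 0.91, lie above the band, and Nr4a2, at 0.73, lies near its upper edge.

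Per kilobase of exon, Nr4a1 stood well above the other members in all groups. Its level was 106 ± 36.2 CPM per kilobase in young rats fed AL, 28.0 ± 11.0 in aged rats fed AL and 79.5 ± 31.6 in aged CR rats (SD, n = 6 each). Nr4a3 had 13.6 ± 7.59, 1.86 ± 0.806 and 5.26 ± 4.08 in the same order, and Nr4a2 had 8.66 ± 5.17, 1.08 ± 0.338 and 3.33 ± 1.87. Averaged over the 18 libraries, the level per kilobase was above that of 94.4% of genes tested for Nr4a1, 54.9% for Nr4a3 and 43.1% for Nr4a2. Nr4a1 exceeded the other members in 6 of 6 rats of each group. Nr4a3 and Nr4a2 did not keep a fixed order, with Nr4a3 the higher in 4 of 6 young rats, 5 of 6 aged rats fed AL and 4 of 6 aged CR rats.

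The balance between members within a rat was followed as a ratio of levels per kilobase, given here as a description. The median ratio of Nr4a1 to Nr4a2 was 12.2 in young rats fed AL, 27.4 in aged rats fed AL and 21.99 in aged CR rats. The median ratio of Nr4a1 to Nr4a3 was 8.70, 14.1 and 17.9 in the same order. On the log2 scale the mean ratio of Nr4a1 to Nr4a2 was 3.75 ± 0.69 in young rats fed AL, 4.64 ± 0.69 in aged rats fed AL and 4.66 ± 0.69 in aged CR rats (SD, n = 6 each). On this measure the aged groups were alike in mean, and both were above young by slightly more than 1 SD. The ratio of Nr4a3 to Nr4a2 spanned 0.269 in rat 13 to 8.06 in library 8827 within the aged CR group alone.

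Rat 13 and library 8827, singled out after their values were seen, had opposite orders of these genes under the same diet. Rat 13 had the highest Nr4a2 of the aged CR group (19.3 CPM) with the lowest Nr4a3 (6.76 CPM), and library 8827 had the highest Nr4a3 (57.6 CPM) with the next to lowest Nr4a2 (5.49 CPM). Their Nr4a1 levels were close, at 215 and 229 CPM. Among young rats, rat 6 combined the lowest Nr4a2 (11.9 CPM) with 68.6 CPM of Nr4a3, while rat 5 had the most of both. In aged rats fed AL the rat highest for Nr4a2, rat 7, was next to lowest for Nr4a1 at 56.2 CPM.

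**Figure D5:**
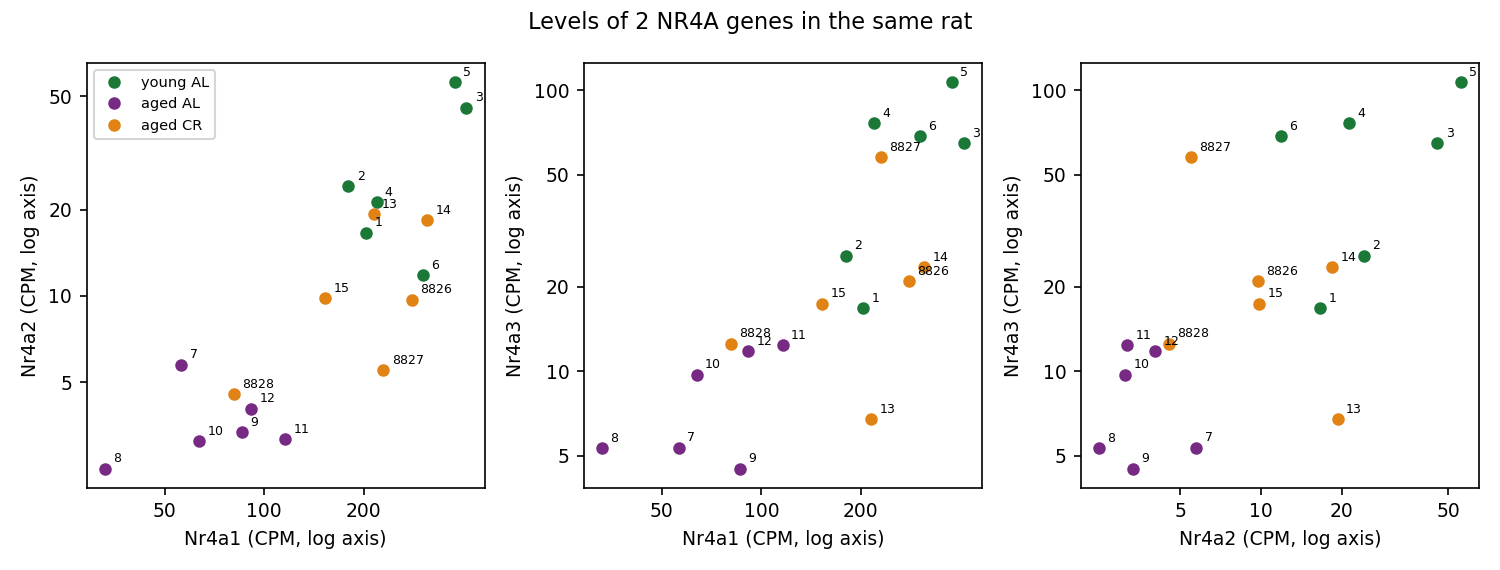
Level of each pair of NR4A genes in the same rat (both axes log, TMM-scaled CPM), coloured by group and labelled by rat or library number. Aged AL points sit at the lower left of each panel. In the panel of Nr4a2 and Nr4a3, rat 13 and library 8827 lie on opposite sides of the other aged CR points.

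Over the 18 libraries the Pearson correlation of log2 CPM was 0.829 between Nr4a1 and Nr4a2, 0.797 between Nr4a1 and Nr4a3, and 0.689 between Nr4a2 and Nr4a3. These values describe libraries that share group, depth and composition. After each group's mean was subtracted they were 0.502, 0.500 and -0.00145, the last for Nr4a2 and Nr4a3. Among 14645 other genes, Nr4a1 was the 8th most like Nr4a2 and the 21st most like Nr4a3, whereas Nr4a2 was the 137th most like Nr4a3. Seen from Nr4a1, Nr4a2 was the 58th and Nr4a3 the 102nd, and these were 2074th and 2092nd after group means were subtracted. The ranks of 8, 21 and 137 were 38, 49 and 370 without rat 8 and library 8828, and 233, 347 and 7577 after group means were subtracted.

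The gene most like any member was ENSRNOG00000001720, on chromosome 11 of Rnor_6.0 from 74312806 to 74315248, with a correlation of 0.932 to Nr4a2. It had 27.3 ± 12.6 CPM in young rats fed AL, 11.6 ± 2.92 in aged rats fed AL and 17.5 ± 6.86 in aged CR rats (SD, n = 6 each). It was also the gene most like Nr4a2 after group means were subtracted, at 0.930, but was behind another gene without rat 8 and library 8828. The gene most like Nr4a1 was ENSRNOG00000002232, on chromosome 14 from 7226586 to 7384876, with a correlation of 0.922 and levels of 98.7 ± 19.2, 54.9 ± 6.72 and 93.8 ± 24.3 CPM in the same order. Its place was less fixed, since other genes came first for Nr4a1 by Spearman correlation, after group means were subtracted and without rat 8 and library 8828. Of the 50 genes most like Nr4a1, 9 remained among the top 50 after group means were subtracted, against 18 for Nr4a2 and 15 for Nr4a3. Of the 50 genes most like each member, 13 (26%) were shared between Nr4a1 and Nr4a2, 9 (18%) between Nr4a2 and Nr4a3, 7 (14%) between Nr4a1 and Nr4a3, and 4 among all 3. The files do not pair identifiers with symbols, so these genes are given by identifier.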

How the data were processed

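Gastrocnemius RNA of 18 rats was depleted of ribosomal RNA and sequenced from strand-specific libraries. The authors mapped reads to Rnor_6.0 with STAR 2.3.0e after trimming with cutadapt 1.2.1, and per the file headers counted fragments with featureCounts 1.6.4 on annotation release 96, with no strand option set. The deposited values are these raw counts, with the exon length of each gene. Groups came from the sample labels, and 3 libraries, whose column names combine the numbers of different aged CR rats, were used as aged CR libraries without a rat number.

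In R 4.3.3, edgeR 4.0.16 filtered genes (filterByExpr), scaled libraries (TMM) and tested the 3 comparisons in 1 quasi-likelihood fit of all 18 libraries. Adjusted p-values are by Benjamini-Hochberg over 14646 genes. Standard errors are the log2 fold change divided by the root of F. Log2 CPM used a prior count of 2. The fits were tested on simulated data. Alternatives were DESeq2 1.42.0, other scalings, filters and thresholds, a covariate and leaving out libraries. The labels do not say whether rats shared a litter or batch.

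The members and lists were chosen with earlier results of these data known. Named were the 3 members and the genes most like them. Lists of NR4A inducers, partners, metabolic genes, other immediate early genes and cell type markers had been drawn up by symbol. The files and the RefSeq gene list (GRCr8) do not pair Ensembl identifiers with symbols, so 0 of these genes were matched, and they and the check of tissue markers were not analysed here.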

Additional observations from a re-analysis of the deposited data

Results flagged for a closer look

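In the aged CR group, Nr4a3 in library 8827 stood apart at 57.6 CPM. Its gap to the next library, rat 14 at 23.4 CPM, was 0.673 of the range of the group. This exceeds Dixon's 95% critical value for 6 samples. On log2 CPM, a scale added after seeing the data, the gap was 0.422 of the range and did not exceed it. In all, 9 combinations of gene and group were examined and 1 exceeded it, where about 1 in 20 does by chance. Nr4a1 and Nr4a2 in the same library were within the range of the group, at 229 and 5.49 CPM. The percent of counts on the 2 mitochondrial genes was 7.89 in this library, and its part in the Nr4a3 value was not tested.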

How the results depend on the processing

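No fold change of the 3 genes changed sign in any alternative. The correlation of Nr4a2 and Nr4a3, 0.689 over 18 libraries, was -0.00145 after group means were subtracted. No paired analysis was possible because the groups are different rats and the labels give no pairing between them. The 3 falls of aged against young rats fed AL were called in all 11 alternative fits and all 18 fits without 1 library. Against young rats, aged CR rats had 0 members called in the main analysis. DESeq2 on all 18 libraries called 2, with log2 fold changes of -1.38 for Nr4a2 and -1.37 for Nr4a3. DESeq2 on only the groups compared called 1, Nr4a2 at -1.37. That fit called 955 of 16810 genes, where the main analysis called 290 of 14646. Leaving out 1 library gave 0 to 1 calls, with log2 fold changes of -1.61 to -1.09 for Nr4a2 and -1.88 to -1.13 for Nr4a3. For Nr4a1 the change was -0.55 to -0.25, the latter without library 8828, and -0.64 with the mitochondrial covariate. Between the aged groups 2 members were called. The count was 1, Nr4a1, because Nr4a2 lost its call, with library totals (Nr4a2 at 1.46), no filter (1.61) and robust shrinkage (1.62). It was 0 with the mitochondrial covariate (Nr4a1 at 1.27, Nr4a2 at 1.77) and 0 at an adjusted p of at most 0.01, where 11 and 44 of all genes were called against 202. DESeq2 called 3, with Nr4a3 at 1.49 in both fits. Leaving out 1 library gave 0 to 2 calls, with 1.36 to 1.68 for Nr4a1 and 1.40 to 1.80 for Nr4a2. The Nr4a2 call was lost without any of rats 2, 4, 7, 8, 9, 10, 11, 12, 13, 14 and 15 and library 8826, with an edgeR adjusted p of 0.0507 to 0.106. The cause of these changes was not tested. With the covariate, the standard errors between the aged groups were wider. The fitted changes of Nr4a1 and Nr4a3 between these groups were smaller, and that of Nr4a2 was larger.

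Library totals as the scaling moved the median log2 fold change of all genes to 0.18 between aged and young rats fed AL and to -0.19 between the aged groups. Over all genes, 497, 290 and 202 were called in aged AL against young AL, aged CR against young AL and aged CR against aged AL. Alternatives gave 124 to 983, 88 to 955 and 11 to 477, and leaving out 1 library 288 to 678, 185 to 578 and 69 to 385. The mean of Nr4a3 in aged CR rats was 16.2 CPM without library 8827, against 23.1 with it. Counts were lowest for Nr4a2 in aged rats fed AL, at 55 to 113 fragments. The counting error there was at most 13.5%, against an SD between rats of 31.3% of the mean CPM.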
